A study of Mus musculus with 12 samples.

Results

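The DN2 and DN4 thymocyte populations, the first and the last of 3 sorted early stages of T cell development in the mouse, were compared across the genes of the Affymetrix Mouse Genome 430 2.0 array. The comparison used 8 of the 12 arrays of the series, 4 of DN2 and 4 of DN4, chosen by their titles, and the 4 DN3 arrays between them served to divide the net change into a first step (DN2 to DN3) and a second step (DN3 to DN4). All cells came from untreated female C57BL/6 mice 5 to 6 weeks old. In each of 4 sorts the thymocytes of 4 mice were pooled, 16 mice in all, and the 3 populations of a sort came from the same pool, so the arrays were paired by sort. CD4+ and CD8+ cells were depleted magnetically, and the remaining cells were sorted as negative for CD4, CD8, CD3, NK1.1 and the gamma-delta T cell receptor. DN2 cells were CD44+ CD25+, DN3 cells CD44- CD25+ and DN4 cells CD44- CD25-. As an array carries the RNA of a pooled population, fewer cells of a type and less RNA per cell cannot be told apart.

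Double-negative thymocytes carry neither CD4 nor CD8 on their surface. At DN2 they have recently entered the T lineage and still hold the machinery of multipotent progenitors. At DN3 they rearrange the T cell receptor beta locus and pair a working beta chain with the invariant pre-T alpha chain, and cells that pass this beta selection lose CD25, divide rapidly and move through DN4 towards the CD4+ CD8+ stage.

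Levels are given as log2 of the quantile-normalized signal plus a small offset. Differences are limma estimates on that scale ± SE over the 4 sorts, with p-values adjusted by Benjamini-Hochberg over all 11166 genes tested, and a gene was called at an adjusted p under 0.05. Replicates of a stage correlated with each other at 0.969 to 0.985 over the tested genes, and no pair of arrays was identical. The log2 median signal before normalization was 4.45 ± 0.31 in DN2 and 4.08 ± 0.11 in DN4 (SD, n = 4; exact permutation p = 0.114). The log2 ratio of 3' to 5' Gapdh control probe sets, a measure of RNA integrity and labelling, was 1.39 ± 0.32 in DN2 and 1.16 ± 0.21 in DN4 (SD, n = 4; exact permutation p = 0.257). Paired by sort, it was lower in DN4 in 4 of 4 sorts (exact two-sided sign-flip p = 0.125, the smallest that 4 pairs can give). The smallest p of the unpaired test for 4 against 4 is 0.0286. On the DN3 arrays of sorts 1 to 4 the log2 median signal was 4.69, 4.40, 4.57 and 4.31, each above the DN4 array of its sort. Their Gapdh ratios were 0.88, 1.26, 0.92 and 1.09, each below the DN2 array of its sort. The median signal thus dropped at the second step and the ratio at the first, so differences between arrays moved with single steps.

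Between DN2 and DN4, 5224 of the 11166 genes tested changed (46.8%), 2779 upward (24.9%) and 2445 downward (21.9%). Falls were fewer but larger: 864 genes fell and 374 rose by at least 2-fold. At 4 or more on the log2 scale there were 33 falls and 4 rises, and at 5 or more 13 falls and 2 rises. The change had the same sign in 4 of 4 sorts for 2688 of the rises and 2368 of the falls. The 4 DN4 arrays lay wholly above or wholly below the 4 DN2 arrays for 3634 genes (32.5%), among them 1797 of the called rises and 1677 of the called falls. The balance of directions depended on scaling. Without normalization between arrays the median over all genes moved from 0.06 to -0.29, and rises made up 11.5% of the calls in place of 53.2%. With arrays only centred on their medians, rises made up 55.6% and the median was 0.09.

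The 6 genes followed through this comparison, picked with earlier results of these data known, showed 3 falls and 3 rises that differed in the step at which they took place. Serpinb1a encodes an intracellular inhibitor of neutrophil-type serine proteases. Its level was 9.99, 10.07, 10.43 and 10.55 on the DN2 arrays of sorts 1 to 4, 6.26, 6.85, 7.58 and 7.10 on the DN3 arrays, and 2.87, 4.24, 3.34 and 3.94 on the DN4 arrays. The 3 stages did not overlap, and every DN4 array lay below 4.71, the level under which a gene counts here as not measured above background. The net fall was -6.66 ± 0.25 (adjusted p = 8.94e-07), at least 46.7-fold when that limit is used for DN4, with near equal steps of -3.31 and -3.35. For each gene with a stage below that level, the log2 differences given, steps included, are as measured, and the bound takes every array of the lower stage at that level or at its own reading, whichever is higher. Another probe set for the gene fell by less, at -2.91.

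Cpa3, a mast cell carboxypeptidase also found in early progenitors, was at 11.41, 11.88, 11.73 and 11.57 in DN2. It was at 5.74, 7.54, 7.72 and 7.18 in DN3 and at 4.83, 5.62, 5.91 and 5.01 in DN4. Most of the net fall of -6.30 ± 0.25 took place before DN3, where -4.60 of it was measured, and the excess of the first step over the second was -2.90 ± 0.43 (adjusted p = 0.00499). Erg, an ETS transcription factor of stem and progenitor cells, had the opposite timing. Its DN2 arrays read 8.84, 8.73, 9.41 and 9.28, its DN3 arrays still 7.80, 7.47, 7.41 and 7.06, and its DN4 arrays 2.71, 2.81, 3.29 and 2.93. The first step was -1.63 and the second -4.50, and all 4 DN4 arrays were below the limit, so that the net fall was at least 20.4-fold.

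H2-Q2, a class Ib major histocompatibility gene, had the largest rise of any gene with a full name. Its arrays read 3.18, 3.37, 4.75 and 4.02 in DN2, 7.86, 6.81, 8.05 and 8.08 in DN3, and 9.03, 9.02, 9.70 and 9.49 in DN4. The net rise was 5.48 ± 0.22 (adjusted p = 1.15e-06), at least 24-fold with 3 of 4 DN2 arrays below the filter level, with 3.87 of it at the first step. Genes of the H2-Q group are near-identical in sequence, so the probe set may read more than 1 of them.

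Cd8b1 encodes the CD8 beta chain, one of the proteins against which the cells were sorted. It read 2.68, 3.35, 3.87 and 2.74 in DN2, 5.20, 4.12, 4.34 and 4.43 in DN3 and 7.95, 8.04, 8.75 and 8.39 in DN4. All 4 DN4 arrays stood above every other array, and 3.76 of the net rise of 5.12 ± 0.31 was measured at the second step. The rise was at least 11.8-fold. Camk4, a calcium- and calmodulin-dependent kinase of thymocytes, read 5.40, 5.72, 5.74 and 4.80 in DN2, 9.15, 8.33, 8.27 and 8.45 in DN3, and 9.99, 9.96, 10.13 and 9.70 in DN4. Its net rise was 4.53 ± 0.22, with 3.13 at the first step, and its 3 bright probe sets gave rises of 0.89 to 4.53.

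**Figure D1:**
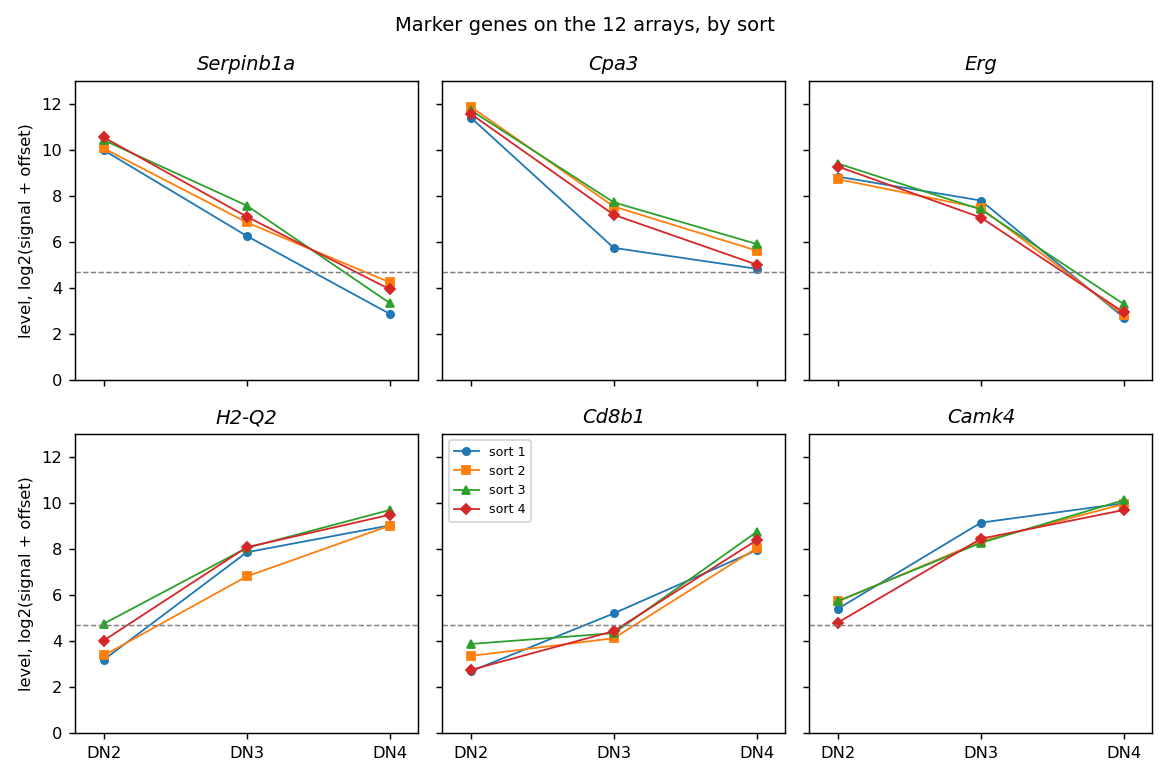
Level of 6 genes (log2 of normalized signal plus offset, vertical axis) on the arrays of DN2, DN3 and DN4 (horizontal axis), each line joining the 3 arrays of 1 sort and the dashed line marking the filter level of 4.71. Serpinb1a fell by about as much at each step (-3.31 and -3.35), Cpa3, H2-Q2 and Camk4 moved mostly at the first step, and Erg and Cd8b1 mostly at the second.

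To ask which step carried a net change, the difference between the steps was tested for each gene in the same fit, as a contrast independent of the net change. A gene is said here to be carried more by a step where its net change and this contrast were both called. Of the 2779 rises, 129 were carried more by the first step, 1.16% of the genes tested, and 188 more by the second (1.68%). Of the 2445 falls, 231 were carried more by the first step (2.07%) and 345 more by the second (3.09%). The other 2462 rises and 1869 falls were assigned to neither step, which does not show that their steps were equal: the median SE of the contrast was 0.22, against 0.13 for the net change. The contrast itself was called for 1377 genes (12.3%). Taken singly, 2329 genes (20.9%) were called at the first step and 3384 (30.3%) at the second. Among changes of at least 2-fold, 55 rises were carried more by the first step and 24 by the second, and the falls divided into 130 and 143.

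Among these larger changes the first step held a median of 53.5% of a rise (quartiles 36.3% and 71.2%) and 48% of a fall (25.3% and 70.1%). The share lay between 25% and 75% for 247 of the 374 rises and 471 of the 864 falls. Both steps were called in the net direction for 277 of all rises and 363 of all falls, and for 1474 net calls neither step reached the threshold on its own. For 29 rises and 62 falls of at least 2-fold the measured first step exceeded the net change, with a second step of opposite sign. These are counts of estimates and not of calls. A first step in the net direction and an opposite second step were both called for 28 of all rises and 24 of all falls. Floors bear on falls: DN4 lay below the filter level for 39 of the 345 falls carried by the second step, and DN3 did so for 38 of the 231 carried by the first.

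In the fits with changed pairing or arrays that follow, counts of genes assigned to a step changed more than counts of net calls did. Scaling also moved the net calls. Without normalization between arrays net rises went from 2779 to 435, rises of the first step from 129 to 98 and those of the second from 188 to 3. Without the pairing by sort, as a fit with no replicate block, there were 56 and 35 rises and 113 and 133 falls for the first and second step. Leaving out the DN3 array of sort 1, 2, 3 or 4 brought the rises of the second step to 67, 40, 73 and 67 and those of the first to 75, 67, 75 and 68. The same arrays left out brought the falls of the second step to 207, 161, 223 and 206 and those of the first to 116, 115, 140 and 127. The rises of the second step also fell to 122, 99 and 95 without the DN2 array of sort 2, 3 or 4 and to 116 and 105 without the DN4 array of sort 1 or 2. Of the 57 genes assigned to a step and named here, 17 held that assignment in all alternatives that tested them with 3 or 4 arrays a stage: Cd44, Cd34, Cd3d, Cd244a, Tyrobp, Ets2, Lef1, Igfbp4, Ldhb, Ptcra and Rag1 for the first step, and Il2ra, Erg, Dtx4, Cdh1, Patz1 and Pld4 for the second. Without the block 21 of the 57 lost it and with the Gapdh ratio as a covariate 38 did, Cpa3, H2-Q2, Camk4, Cd8b1 and Lyl1 among them, and under none of these alternatives was any of the 57 assigned to the other step.

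**Figure D2:**
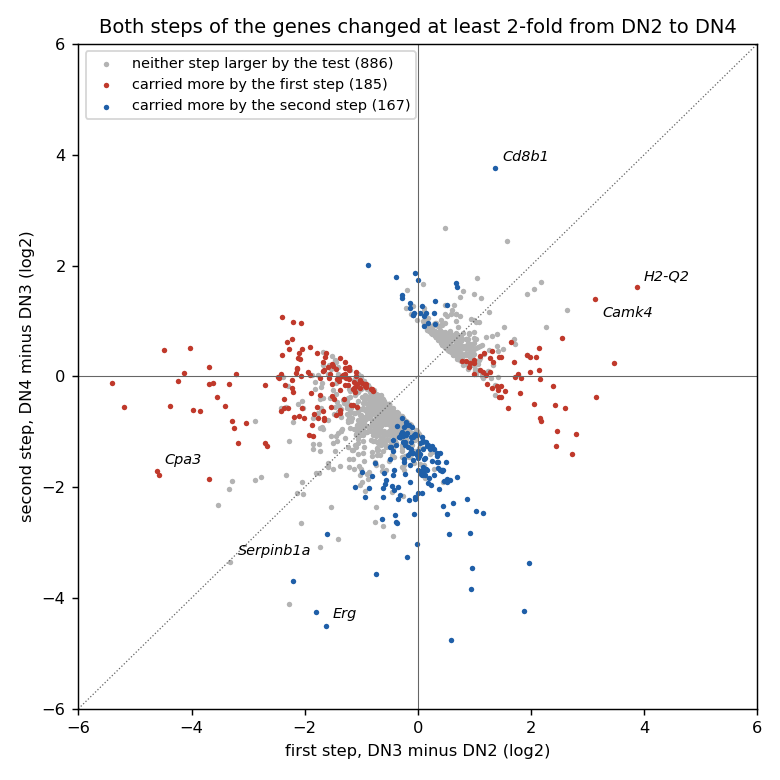
First step (DN3 minus DN2, log2, horizontal axis) and second step (DN4 minus DN3, log2, vertical axis) of the 1238 genes called between DN2 and DN4 with a net change of at least 2-fold, coloured by the step that carried more of it. Red points (185) spread along the horizontal axis and blue points (167) along the vertical one, while 886 grey points lie around the dotted line of equal steps; the empty band in the middle is the 2-fold limit.

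**Figure D3:**
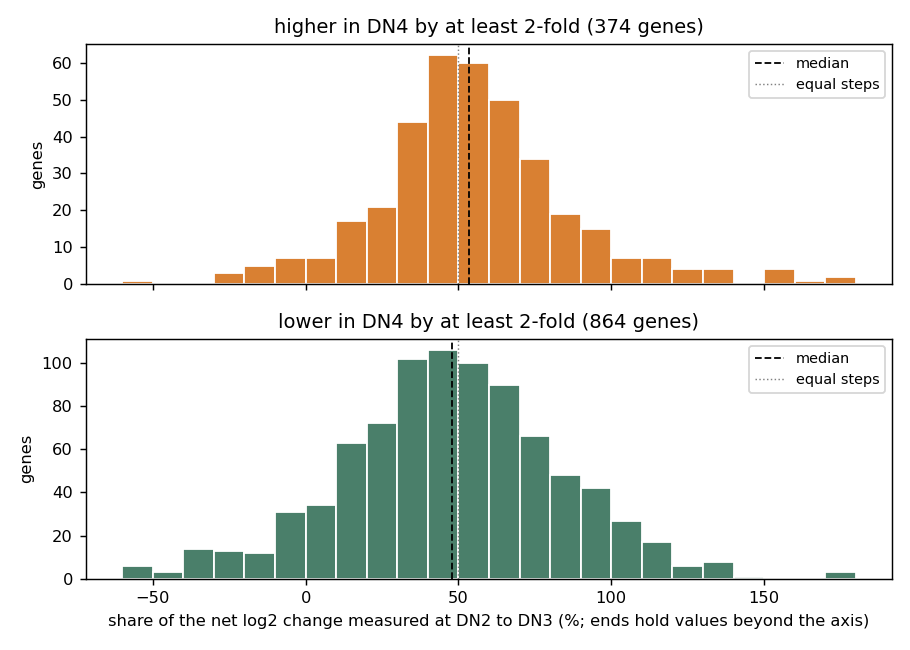
Number of genes (vertical axis) by the share of the net log2 change that was measured between DN2 and DN3 (%, horizontal axis), for 374 rises (top) and 864 falls (bottom) of at least 2-fold. Both distributions have a single peak near equal steps, with medians of 53.5% for rises and 48% for falls; shares below 0 or above 100 mark steps of opposite sign.

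The genes that define the sort gates followed the gates. Cd44, the adhesion receptor lost between DN2 and DN3, read 9.49, 8.76, 9.46 and 10.06 in DN2, 5.79, 5.32, 5.79 and 6.13 in DN3 and 5.21, 4.96, 6.08 and 6.23 in DN4. Its fall of -3.82 ± 0.15 lay almost wholly in the first step (-3.69), and DN3 and DN4 overlapped. Il2ra, which encodes CD25, read 11.11, 11.10, 11.28 and 11.32 in DN2, 10.18, 10.50, 10.58 and 10.59 in DN3, and 6.21, 6.78, 7.16 and 7.45 in DN4. Of its fall of -4.30 ± 0.15, -3.56 lay in the second step. Both assignments held in the 23 alternatives with 3 or 4 arrays a stage, the fit without the block included. On sorts 1 and 2 alone neither gene was assigned to a step, and on sorts 3 and 4 alone Cd44 was and Il2ra was not. As the cells were sorted on these proteins, the changes are a check of the sort and not a finding. Among the proteins sorted against, Cd3e read 8.62 to 9.16 in DN2 and 8.85 to 9.18 in DN4, groups that overlapped (0.16 ± 0.08, adjusted p = 0.14). Cd3g fell by 0.76 at a high level, Cd3d rose by 1.91 and Cd8a rose by 1.45, while Cd4 was below the filter level on all 12 arrays.

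Most tested genes of the progenitor lists fell. Of 22 listed progenitor transcription factors 18 passed the filter, and 12 of these fell and 2 rose, with a median net change of -1.79 against 0.06 over all genes. These were 66.7% and 11.1%, against 21.9% and 24.9% over all genes. Nfe2, a factor of megakaryocyte and erythroid progenitors, fell at least 16.9-fold (-5.36 as measured). Lyl1, a basic helix-loop-helix factor of stem cells and lymphoid progenitors, fell at least 13-fold (-4.92). Lyl1 read 8.72, 8.61, 7.99 and 8.36 in DN2, 4.57, 3.99, 3.32 and 4.24 in DN3 and 3.06, 4.37, 3.53 and 3.05 in DN4. It had thus reached the filter level by DN3, with -4.39 of the fall in the first step. Hhex, a homeobox repressor, was also carried more by the first step, at 8.74 to 9.24 in DN2, 4.62 to 5.32 in DN3 and 3.90 to 4.94 in DN4. Its fall was at least 18.5-fold, with 2 of 4 DN4 arrays below the filter level. Mycn, by contrast, read 8.65, 8.39, 8.23 and 7.99 in DN2, 8.67, 8.06, 8.44 and 8.07 in DN3 and 6.34, 5.92, 6.63 and 5.95 in DN4. It was flat over the first step (-0.01) and lost -2.10 in the second. The 2 rises were Irf8 (0.63) and Zfpm1, which encodes a GATA cofactor (0.79); the latter is named beyond the rule for named genes to complete the count.

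All 9 progenitor surface molecules above the filter, of 14 on the array, fell (100%, against 21.9% over all genes), with a median of -3.09. A gene passes the filter with 4 arrays above it. A member bright in DN2 alone, such as Cd34, can thus be called only as a fall in any list, so the filter set part of this count. Cd44 and Il2ra are among the 9, and as the cells were sorted on their proteins, their falls were set by the gates. The stem cell antigen Cd34 read 7.10, 7.11, 7.36 and 8.23 in DN2 and only 2.70, 2.72, 2.88 and 3.53 in DN3. In DN4 it read 2.96, 2.85, 3.84 and 4.10, still under the filter level, so its fall of at least 6.66-fold had reached the filter level at DN3. Kit, the receptor for stem cell factor, declined by -1.86 and then -1.08 to a net -2.94 ± 0.11. Cd93 fell by 3.92 and Cd48 by 1.65. The 3 bright probe sets for Cd93 gave -3.92 to -1.89.

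Among 28 cytokine receptors 12 fell and 3 rose (42.9% and 10.7%, against 21.9% and 24.9% over all genes). Il1r2, a decoy receptor for interleukin-1, read 11.08, 9.38, 9.55 and 10.56 in DN2, 4.82, 4.31, 4.87 and 5.77 in DN3, and 3.56, 4.26, 5.25 and 4.51 in DN4. Of its net -5.75 ± 0.43, -5.20 lay in the first step. The fall was at least 39.3-fold, with 3 of 4 DN4 arrays below the filter level. Il7r, the receptor chain for the survival factor interleukin-7, fell from 9.83 to 10.37 in DN2 through 9.44 to 9.73 in DN3 to 8.33 to 8.73 in DN4. Il4ra fell by 2.80 and Tgfbr2 by 2.35. Tnfrsf1b, a receptor for tumour necrosis factor, did not fall until the second step (0.10, then -1.64). Of 17 JAK, STAT and SOCS genes downstream of such receptors, 7 fell and 1 rose (41.2% and 5.88%). Among them were Socs2 (-4.72, at least 13.2-fold), Stat4 (-2.18) and Socs3 (0.51, then -1.91).

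Genes better known from cytotoxic and myeloid cells fell too. Nkg7, a granule protein of killer cells, read 10.64, 10.71, 10.80 and 10.59 in DN2, 8.54, 9.45, 9.29 and 9.04 in DN3, and 6.04, 6.23, 6.40 and 6.28 in DN4. Fasl, the ligand of the death receptor Fas, fell at least 22.9-fold (-4.73 as measured) and the protease gene Gzmb at least 8.47-fold (-4.23). Another probe set for Fasl fell by less, at -2.41. Gzma moved the other way: it read 11.05, 12.15, 11.98 and 11.15 in DN2 and 12.78, 13.04, 13.08 and 12.99 in DN4, a rise of 1.39 ± 0.19. Cd244a, which encodes the receptor 2B4, and Tyrobp, an adaptor of activating receptors, fell at least 8.6-fold and 8.05-fold (-4.32 and -3.75 as measured), nearly all before DN3 (-4.24 and -3.62). All 4 DN4 arrays were below the filter level for Cd244a and 3 of 4 for Tyrobp. Another probe set for Cd244a fell by less, at -1.43. In the list of natural killer and cytotoxic genes 10 of 15 tested members fell and 1 rose. These were 66.7% and 6.67%, against 21.9% and 24.9% over all genes. Scin, an actin-severing protein, fell by 5.91, and Ctla2a and Ctla2b, 2 closely related inhibitors of cysteine proteases, by 6.06 and 5.86, the latter at least 39.9-fold. The probe sets of this pair may read each other's transcripts, and their steps differed, at -1.81 and -4.26 for Ctla2a and -3.54 and -2.32 for Ctla2b.

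Genes of the pre-T cell receptor and T cell identity were divided. Of 31 genes of the receptor complex and its signalling, 7 rose and 12 fell, with a median of -0.08. These were 22.6% and 38.7%, against 24.9% and 21.9% over all genes. Zap70, the kinase recruited to the receptor, read 6.65, 6.52, 6.59 and 6.57 in DN2, 8.11, 8.19, 8.35 and 8.27 in DN3, and 8.68, 8.74, 8.94 and 9.05 in DN4. Its net rise was 2.27 ± 0.09, with 1.65 at the first step; its 3 bright probe sets gave 0.03 to 2.27. Syk, the related kinase of pre-receptor signalling, fell by 1.36 over the same interval. Plcg1 fell by 1.02. Sh2d1a, the adaptor SAP of the signalling lymphocyte activation receptors, rose by 3.24 ± 0.13.

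Ptcra, Cd3d and Rag1 ended higher in DN4 than in DN2 but lower than in DN3. Ptcra, which encodes the pre-T alpha chain, read 5.95, 7.33, 7.16 and 6.46 in DN2, 8.43, 9.72, 9.63 and 8.95 in DN3, and 7.62, 8.25, 8.80 and 8.15 in DN4. Rag1, which encodes part of the recombinase that cuts receptor loci, read 9.77, 10.33, 10.11 and 9.85 in DN2, 12.15, 12.34, 12.24 and 11.99 in DN3, and 11.45, 11.45, 11.56 and 11.24 in DN4. Each of the 4 sorts showed the rise and the partial return for both genes. The net rises of 1.48 ± 0.14 and 1.41 ± 0.10 were smaller than the first steps of 2.46 and 2.17. Within the 14 V(D)J recombination genes 3 rose and 3 fell (21.4% each, near the shares over all genes). Polm, a DNA polymerase, rose at the first step (1.71, then -0.01). Its net rise was at least 1.31-fold, with all DN2 arrays below the filter level. Dntt, which adds untemplated bases at the junctions, changed by -0.42. With the mean of all its probe sets the Dntt value was 0.02.

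Of 24 T cell surface molecules 11 rose and 7 fell (45.8% and 29.2%, against 24.9% and 21.9% over all genes). Cd2, an adhesion receptor, read 4.22, 2.91, 3.77 and 3.45 in DN2, 4.95, 4.63, 5.29 and 5.81 in DN3, and 7.75, 6.88, 7.96 and 7.90 in DN4, stages that did not overlap. Its rise of 4.03 ± 0.22 was shared by both steps (1.58 and 2.45). With all DN2 arrays below the filter level, it was at least 7.5-fold. Cd6 rose by 1.81 and the tetraspanin gene Cd81 by 1.09, while the tetraspanin gene Cd53 fell by 2.99. Of 24 genes typical of the later CD4+ CD8+ stage, 10 rose and 1 fell (41.7% and 4.17%).

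T-lineage transcription factors were divided, with 7 of 39 higher and 12 lower (17.9% and 30.8%, against 24.9% and 21.9% over all genes). Lef1, a partner of beta-catenin, read 6.84, 7.21, 7.11 and 6.60 in DN2, 10.43, 10.33, 10.33 and 10.53 in DN3, and 10.50, 10.68, 10.67 and 10.75 in DN4. All but 0.25 of its rise of 3.71 ± 0.14 lay in the first step. Ikzf3, the Ikaros family member Aiolos, read 4.37, 2.85, 4.06 and 4.10 in DN2, 6.17, 5.20, 6.31 and 6.42 in DN3, and 7.76, 7.54, 7.63 and 7.99 in DN4. It gained at both steps, 2.18 and 1.71, and at least 8.09-fold in all, with DN2 below the filter level. Ets2 rose by 2.24, of which 2.14 lay in the first step. On the other side Bach2 fell by 2.97, Runx3 by 2.30 and Zbtb16, the factor PLZF of innate-like lymphocytes, by 1.30 (at least 2.16-fold, 3 of 4 DN4 arrays being below the filter level). The 3 bright probe sets for Bach2 gave -3.07 to -0.39. Patz1, a zinc finger factor, was not called at the first step (-0.08) and fell by 1.38 in the second.

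Notch signalling drives cells through DN2 and DN3 and is turned down after beta selection. Of 19 Notch receptors and targets, 9 fell and 2 rose from DN2 to DN4 (47.4% and 10.5%, against 21.9% and 24.9% over all genes). No member rose at the second step. At that step 9 members fell, against 14.9% of all genes. Il2ra, whose protein CD25 separated DN3 from DN4 in the sort, is counted in both falls, so its part was set by the gates. Dtx4, a Deltex family gene, read 7.86, 7.79, 7.27 and 7.37 in DN2, 7.33, 7.32, 7.28 and 7.59 in DN3, and 3.44, 4.49, 4.03 and 4.54 in DN4. The first 2 stages overlapped, and all DN4 arrays were under the filter level, a fall of at least 7.24-fold. Another probe set for Dtx4 fell by less, at -1.40. Its relative Dtx1 read 6.85, 7.94, 7.59 and 7.85 in DN2, 9.74, 10.15, 10.02 and 9.92 in DN3, and 7.89, 7.44, 7.87 and 8.37 in DN4. Dtx1 thus peaked at DN3, and its ends overlapped (0.33 ± 0.23, adjusted p = 0.255). Another bright probe set rose by 2.01; with the mean of its probe sets the Dtx1 value was 1.17 (adjusted p = 0.00113), and without the DN4 array of sort 2 it was 0.58 (adjusted p = 0.0324). Nrarp, an inhibitor that Notch itself induces, fell by 1.70, more in the first step (-1.30). In the fit with the Gapdh ratio as a covariate, 4 Notch members were lower in place of 9.

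**Figure D4:**
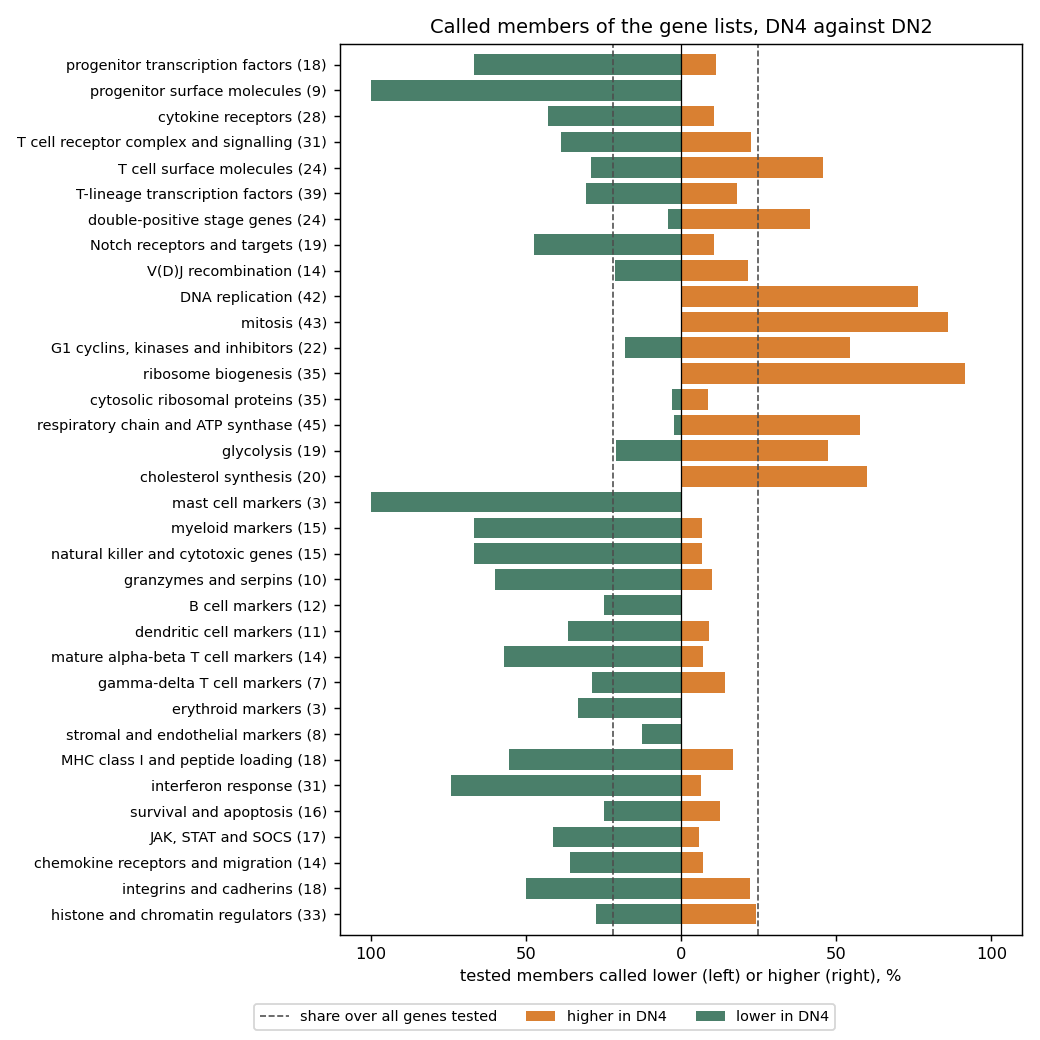
Share of the tested members of 34 gene lists that were called lower (left, green) or higher (right, orange) in DN4 than in DN2, in percent, with the number of tested members in brackets and dashed lines at the shares over all genes tested (21.9% and 24.9%). Bars for DNA replication, mitosis and ribosome biogenesis extend to the right only, and those for progenitor, myeloid, cytotoxic and interferon response genes mostly to the left.

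Most cell division genes rose. Of 42 DNA replication genes 32 rose (76.2%, against 24.9% over all genes) and none fell by the test (against 21.9%), with a median of 0.39. Nearly all of this was measured at the second step: 35 members rose there, against 15.4% of all genes. At the first step 1 rose and 4 fell, against 9.93% and 10.9% of all genes. The median of the list was -0.10 at the first step and 0.51 at the second. In 18 members the net rise was carried more by the second step, against 1.68% of all genes, and in no member more by the first. Rrm2, a subunit of ribonucleotide reductase, read 11.24, 10.95, 11.50 and 11.61 in DN2, 11.27, 10.86, 11.34 and 11.54 in DN3, and 11.91, 11.76, 12.05 and 12.18 in DN4. DN2 and DN3 were interleaved, and every DN4 array was above both. Gins3, part of the replicative helicase, changed by -0.13 and then 0.80, and Rpa3, a subunit of the single-strand binding protein, by 0.14 and then 0.75.

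Of 43 mitosis genes 37 rose (86%, against 24.9% over all genes) and none fell (against 21.9%), with a median of 0.57. At the second step 36 rose, against 15.4% of all genes. At the first 3 rose and 1 fell, against 9.93% and 10.9% of all genes. Cdk1, the mitotic kinase, read 9.85, 9.57, 10.07 and 10.15 in DN2, 9.91, 9.49, 10.06 and 10.30 in DN3, and 10.62, 10.48, 10.80 and 10.77 in DN4. The kinases Plk1 and Aurka rose by 1.28 and 1.15 net. The 22 genes of the G1 phase were mixed, with 12 higher and 4 lower (54.5% and 18.2%, against 24.9% and 21.9% over all genes). Ccne2, a cyclin of the entry into replication, rose by 1.20. Cdkn1a, the inhibitor p21, read 10.83, 10.27, 11.77 and 11.69 in DN2, 9.79, 10.61, 10.98 and 10.13 in DN3, and 7.47, 8.21, 8.03 and 7.27 in DN4, a net fall of -3.40 ± 0.33. Ccnd2, a D-type cyclin, was level over the first step (0.01) and fell in the second (-1.44), and Cdk6, its partner, fell by 0.96.

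These division counts depended on the scaling and the pairing. Without normalization between arrays 3 replication genes and 9 mitosis genes were called higher and none lower, at medians of 0.18 and 0.31 against -0.29 over all genes. With arrays centred on their medians 37 and 40 were higher. Without the block for sort 19 and 24 were higher, and only 1 replication gene was carried more by the second step. With the Gapdh ratio given above as a covariate, 19 replication genes were higher and 1 lower, 19 mitosis genes were higher, and none was assigned to a step.

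Growth genes rose with another timing. Of 35 ribosome biogenesis genes 32 rose (91.4%, against 24.9% over all genes) and none fell (against 21.9%), with a median of 0.64. Here the first step was the larger. At that step 25 members rose, against 9.93% of all genes, and at the second 11, against 15.4%, with medians of 0.40 and 0.17. Polr1b, a subunit of RNA polymerase I, read 7.96, 7.70, 7.77 and 7.57 in DN2, 8.19, 8.31, 8.39 and 8.53 in DN3, and 9.03, 9.09, 8.90 and 9.15 in DN4, rising without overlap at both steps. Rrp9, a protein of the small-subunit processome, rose by 0.92 and then 0.35, and Bysl, needed for the same particle, by 0.57 at each step. The test assigned 2 of the 32 to the first step and none to the second, so the difference in timing is described by the medians and was not tested for the list. The genes of the finished ribosome behaved otherwise: of 35 cytosolic ribosomal protein genes 3 rose and 1 fell, with a median of 0.00. These were 8.57% and 2.86%, against 24.9% and 21.9% over all genes. The calls for ribosome biogenesis were 11 without normalization between arrays and 34 with arrays centred on their medians, none lower. For the ribosomal proteins they were 0 and 21 rises, so that their level relative to other genes depends on the scaling.

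Of 45 genes of the respiratory chain and ATP synthase 26 rose and 1 fell, with a median of 0.27. These were 57.8% and 2.22%, against 24.9% and 21.9% over all genes. Ndufs1, a complex I subunit, rose by 0.54, Sdhb by 0.47 and Atp5o by 0.64. Of 20 cholesterol synthesis genes 12 rose (60%) and none fell. Insig1, a sensor of the pathway, rose by 0.80 and Sqle, the squalene epoxidase, by 0.64, both mostly at the first step (0.65 and 0.64). Without normalization between arrays the respiratory list had no rise and 1 fall, and the cholesterol list 1 rise at a median of -0.07. In glycolysis 9 of 19 rose (47.4%) and 4 fell (21.1%, near the share over all genes). Pfkp, a phosphofructokinase, rose by 1.33, Ldhb rose at the first step (1.32, then -0.21) and Aldoc fell at the second (-0.25, then -1.55).

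**Figure D5:**
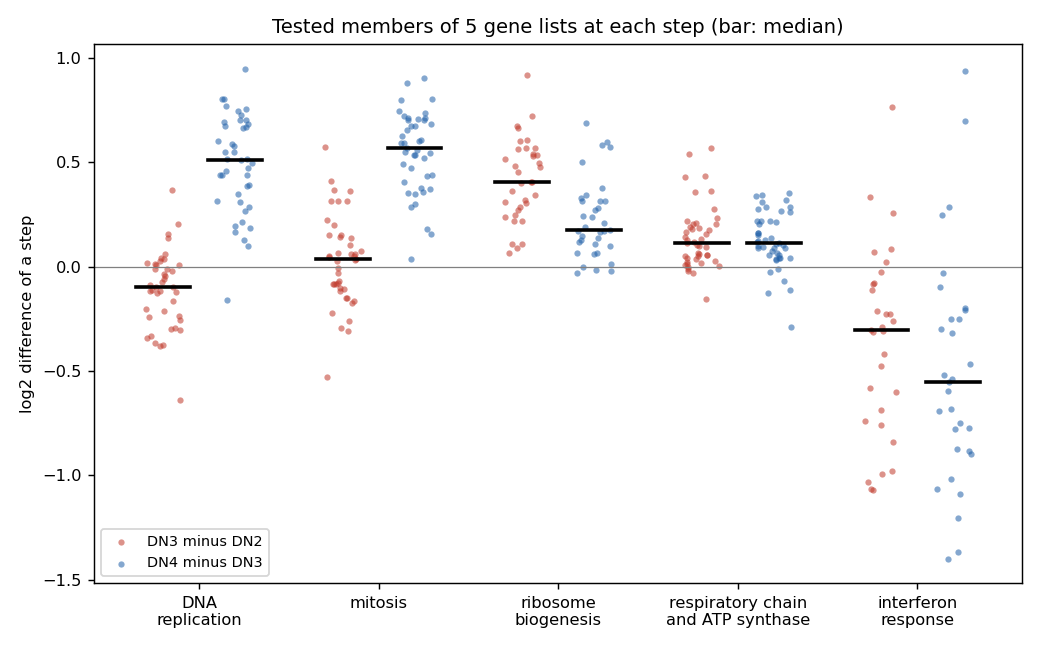
Log2 difference at the first step (red, DN3 minus DN2) and the second step (blue, DN4 minus DN3) for each tested member of 5 gene lists, with the list median as a bar. DNA replication and mitosis genes lie near 0 at the first step and mostly above it at the second, ribosome biogenesis genes are already above 0 at the first, and interferon response genes lie mostly below 0 at both.

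Interferon response genes fell together. Of 31 tested members 23 fell and 2 rose (74.2% and 6.45%, against 21.9% and 24.9% over all genes). The median was -0.89, and 10 fell at the first step and 17 at the second, against 10.9% and 14.9% of all genes. Gbp2, a guanylate-binding protein of antimicrobial defence, read 8.80, 8.92, 8.68 and 8.75 in DN2, 7.71, 8.37, 8.39 and 7.94 in DN3, and 7.04, 7.18, 7.35 and 6.77 in DN4. The 3 stages did not overlap. Isg20 fell by 1.95, Rtp4 by 1.45 and Ifih1, a sensor of viral RNA, by 1.08. Under the 3 scalings 23 to 25 members were lower, and with the Gapdh covariate 16.

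The classical class I genes fell as well, in contrast to H2-Q2. H2-K1 read 12.95, 12.64, 12.43 and 12.34 in DN2, 11.91, 12.03, 12.06 and 11.62 in DN3, and 10.77, 10.82, 10.83 and 10.57 in DN4, a net -1.84 ± 0.11. H2-D1 fell by 1.55 and Nlrc5, the activator of class I transcription, by 1.81. Tapbp, which loads peptides, fell by 1.25 and the peptide transporter gene Tap1 by 0.70, a value of -0.03 that was not called with the mean of its probe sets. In the list of class I and peptide loading genes 10 of 18 fell and 3 rose. These were 55.6% and 16.7%, against 21.9% and 24.9% over all genes. The H2-K1 probe set carries the suffix of probe sets that can read related genes, and the 4 bright sets for the gene gave -3.29 to -0.86.

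Of 16 survival and apoptosis genes 4 fell and 2 rose, 25% and 12.5% against 21.9% and 24.9% over all genes. Bcl2, the inhibitor of mitochondrial apoptosis, read 10.57, 11.00, 10.72 and 10.44 in DN2, 9.56, 10.16, 9.87 and 9.20 in DN3, and 7.79, 8.09, 8.24 and 7.79 in DN4. Its net fall was -2.70 ± 0.11, with -1.72 in the second step, and its 5 bright probe sets fell by 0.62 to 2.70. Bid, which carries death receptor signals to the mitochondrion, rose by 1.60 in equal steps (0.81 and 0.79). Bcl2l11, which encodes Bim, fell by 0.72.

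Among 18 integrins and cadherins, which hold cells to each other and to matrix, 9 fell and 4 rose. These were 50% and 22.2%, against 21.9% and 24.9% over all genes. Cdh1, E-cadherin, read 6.73, 7.52, 7.37 and 7.66 in DN2, 8.09, 8.59, 8.03 and 8.24 in DN3, and 4.94, 6.03, 5.52 and 5.15 in DN4. It rose by 0.92 before falling by 2.83, and ended under DN2 in every sort. Itga4, an integrin chain for vascular adhesion, fell by 1.69, and Itgb2, the common chain of leukocyte integrins, rose by 1.72. Of 14 chemokine receptor and migration genes 5 fell and 1 rose (35.7% and 7.14%). Gpr183, a receptor for oxysterols, fell at least 4.19-fold (-2.59) and Cxcr3 rose at least 1.81-fold (1.03). Each had 2 of 4 arrays of its lower stage below the filter level. Another probe set for Gpr183 fell by less, at -1.83. Of 33 histone and chromatin regulators 9 fell and 8 rose, 27.3% and 24.2%, near the shares over all genes. They include Hdac9 (-1.83, at least 3.35-fold with 3 of 4 DN4 arrays below the filter level), Kdm5b (-1.03) and Cbx8 (1.17).

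A set of genes reached DN4 by way of a reversal. Pld4, of the phospholipase D family, read 8.65, 8.45, 8.55 and 7.68 in DN2, 9.88, 10.40, 10.85 and 9.75 in DN3, and 5.75, 5.86, 6.46 and 5.89 in DN4. It rose by 1.88 and fell by 4.23, so that the net fall of -2.34 was smaller than the fall of the second step. Igfbp4, which binds insulin-like growth factors, dropped by 4.04 and regained 0.51. A further 157 genes rose and then fell, and 123 fell and then rose, without a net call. Spib, an ETS factor of the PU.1 family, was one of the former: it read 6.28 to 7.42 in DN2, 8.08 to 9.03 in DN3 and 6.33 to 7.34 in DN4. Gsn, gelsolin, was one of the latter, at 6.10 to 7.90 in DN2, 4.80 to 5.74 in DN3 and 6.91 to 8.52 in DN4. In both, DN2 and DN4 overlapped and DN3 stood apart.

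Promoter sequences are shown for 4 of the gene groups whose members moved together, with the motif best known for each. Windows were 300 bases long, from 250 before to 50 after the start of transcription, taken from RefSeq on GRCm38.p6, and the motifs were searched on both strands. Either E2F form searched, TTTCCCGC or TTTGGCGC, was present in 6 of 31 promoters of replication genes called higher (19.4%), against 1.56% of all 32851 promoters. The cell cycle homology element TTTGAA was present in 25 of 34 promoters of mitosis genes called higher (73.5%), against 17.9% of all. The E-box CACGTG was in 7 of 34 promoters of ribosome biogenesis genes (20.6%, against 7.15%) and nearly as often in those of the replication genes, 5 of 31 (16.1%). The E2F forms were also in 3 of 34 ribosome biogenesis promoters (8.82%) and 2 of 34 mitosis promoters (5.88%). The other pairings of group and motif ranged from 0 to 22.7% of promoters. The interferon response motif, GAAA followed by any 2 bases and GAAA again, was in 11 of 22 promoters of interferon genes called lower (50%, against 3.44%). These are matches of letters and not measured binding, and the groups differ from all promoters in more than the motif. RefSeq promoters were matched for 27, 32, 30 and 18 genes of the 4 groups, in that order.

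The 250 bases before the start are given, 5' to 3' on the gene's strand with the match in capitals, for the gene with the largest net change in each group among those whose match lies in these bases. They are Cdc6 (0.03, then 0.70; chr11:98907901-98908150, plus strand), a loader of the replicative helicase, Ncapg (0.31, then 0.59; chr5:45669675-45669924, plus strand), a condensin subunit, Nop2 (0.54, then 0.31; chr6:125131633-125131882, plus strand), which modifies ribosomal RNA, and Gbp2 (-0.69, then -1.02; chr3:142620413-142620662, plus strand). Cdc6 and Nop2 are named for their promoters alone.
Cdc6: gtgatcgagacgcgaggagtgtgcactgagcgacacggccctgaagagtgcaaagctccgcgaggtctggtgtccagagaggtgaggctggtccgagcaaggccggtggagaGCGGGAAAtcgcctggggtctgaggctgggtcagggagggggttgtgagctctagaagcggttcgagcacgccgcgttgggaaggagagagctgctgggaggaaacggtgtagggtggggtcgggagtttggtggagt
Ncapg: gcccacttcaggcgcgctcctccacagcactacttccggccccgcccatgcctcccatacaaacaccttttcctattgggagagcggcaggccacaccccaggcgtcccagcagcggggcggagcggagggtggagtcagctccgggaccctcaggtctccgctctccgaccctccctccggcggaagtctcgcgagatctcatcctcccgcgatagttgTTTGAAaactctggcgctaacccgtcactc
Nop2: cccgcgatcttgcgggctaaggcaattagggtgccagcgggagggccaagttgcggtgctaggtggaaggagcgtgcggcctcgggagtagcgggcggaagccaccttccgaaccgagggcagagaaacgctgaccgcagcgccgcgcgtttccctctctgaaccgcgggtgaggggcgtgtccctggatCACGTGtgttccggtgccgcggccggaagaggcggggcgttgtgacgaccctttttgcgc
Gbp2: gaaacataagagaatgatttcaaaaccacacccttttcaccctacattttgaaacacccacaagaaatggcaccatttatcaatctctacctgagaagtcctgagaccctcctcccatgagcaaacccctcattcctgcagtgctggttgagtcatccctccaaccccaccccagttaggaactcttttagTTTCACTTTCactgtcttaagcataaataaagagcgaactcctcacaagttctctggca
The match in Cdc6 begins 138 bases before the start, that in Ncapg 30, in Nop2 60 and in Gbp2 59. The Cdc6 and Gbp2 matches read on the other strand, so the capitals show the reverse complement of the motif.

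Markers of other cell types were summed as linear signal on each array. The 12 mast cell markers summed to 2892 to 3881 in DN2, 150 to 299 in DN3 and 115 to 133 in DN4. Ms4a2, Fcer1a, Tpsab1, Mcpt4, Slc6a4 and Hpgds, which include the defining receptor and proteases, were below the filter level on all 12 arrays, and the sum in DN2 was mostly Cpa3. All 3 members that passed the filter, Cpa3 among them, fell, and the other 9 did not pass it. Those besides Cpa3 had every DN4 array below the filter level. They passed it through DN2 and DN3 arrays, so the filter set part of the shared direction. The 22 myeloid markers summed to 1865 to 3141 in DN2, 705 to 858 in DN3 and 422 to 735 in DN4, with Itgam and Fcgr3 below the level throughout. Of 15 tested members 10 fell and 1 rose (66.7% and 6.67%, against 21.9% and 24.9% over all genes). Lyz1 fell at least 21.3-fold (-4.82), Mpo fell at least 8.06-fold (-3.92) and Lyz2 fell by 2.54, the 2 lysozyme genes being near-identical; 3 of 4 DN4 arrays were below the filter level for Lyz1 and Mpo. The 29 natural killer and cytotoxic genes summed to 6045 to 8370 in DN2 and 7674 to 9687 in DN4, where the sum was mostly Gzma; without Gzma the sums were 2982 to 4597 and 627 to 1021. For mature alpha-beta T cells the sums of 16 markers were 10740 to 13186 and 7286 to 9200, and for 17 dendritic cell markers 3344 to 3745 and 2068 to 3041. Of 14 tested members of the former list 8 fell and 1 rose (57.1% and 7.14%), with a median of -1.02. Of 11 tested dendritic cell markers 4 fell and 1 rose (36.4% and 9.09%), with a median of 0.06. The shares over all genes were 21.9% and 24.9%. The sums of B cell markers (712 to 965 and 483 to 822) and gamma-delta T cell markers (1083 to 1745 and 885 to 1446) overlapped between DN2 and DN4, as did those of erythroid markers (215 to 271 and 147 to 238) and stromal markers (357 to 563 and 328 to 475). Of 3 tested erythroid members 1 fell (33.3%, against 21.9% over all genes) and none rose. Alas2, an erythroid marker that did not pass the filter, read 2.76, 3.10, 3.85 and 3.38 in DN2 and 5.74, 3.93, 6.45 and 5.78 in DN4, without overlap. Many of the summed markers are also expressed by early T cell progenitors, and the part of other cells in the changes was not tested.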

How the data were processed

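The deposited table holds 1 signal intensity per probe set and array from 12 Affymetrix arrays, which the authors made with GCOS according to the submitters' processing notes. The sources used here state no version, algorithm or scaling for it. Per the labels, RNA was amplified in a two-cycle synthesis. Of 45101 probe sets, 34945 have 1 gene symbol in the platform annotation, 932 have several, 9211 are not listed with a gene, and 64 controls were left out. Symbols were updated through RefSeq for 34741 probe sets. Intensities were quantile-normalized, 5.69 (their 25th percentile) was added and log2 taken. The probe set of highest mean stood for its gene, and 11166 of 18193 genes above a log2 level of 4.71 on at least 4 arrays were tested. Differences and bounds hold for that probe set. Of the genes called between DN2 and DN4, 2629 had more than 1 probe set that met this filter. In 133, another such probe set moved the other way by more than 0.5.

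One fit over 12 arrays (limma 3.58.1, R 4.3.3; stage with sort as a block; lmFit and eBayes, two-sided, Benjamini-Hochberg, threshold 0.05) gave every contrast, with 6 residual degrees of freedom. The labels state that same-numbered samples share a cell source, and deviations of same-sort arrays correlated at 0.25 to 0.343, those of different sorts at most at 0.107. Precision is limited by the 4 arrays a stage. The fit was tested on simulated data. A gene whose lower stage has a mean below the filter level is given with a bound against that level beside its measured difference. Per list, the called members with the smallest adjusted p are named, beside the sort markers, the largest changes, the largest changes carried by a step and those with opposed steps. The gene lists, the compared genes and the rules were chosen with earlier results of these data known, and the motifs after the list counts were seen. Alternatives changed the block, scaling, offset, filter, probe set choice, eBayes settings and arrays.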

Additional observations from a re-analysis of the deposited data

Results flagged for a closer look

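In 9 of the 233 groups of 4 arrays examined, over the genes named and the array measures, 1 array stood apart from the other 3 by Dixon's test; chance alone gives about 1 in 20. In DN2, Nfe2 was at 9.51 on that array and at 8.50 to 8.62 on the others. The DN2 level of Runx3 was 10.63 against 9.67 to 9.78, and that of Tnfrsf1b 11.38 against 10.35 to 10.52. Among ribosome biogenesis genes, Rrp9 was at 8.57 against 7.90 to 7.94 in DN2 and Nop2 at 8.37 against 7.99 to 8.04. In DN4, Socs2 was at 2.73 against 4.02 to 4.11, all below the filter level, and Cd93 at 6.28 against 6.61 to 6.65. Dntt was at 12.72 against 12.52 to 12.54 in DN4 and Sqle at 10.02 against 9.46 to 9.51.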

How the results depend on the processing

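With 1 array left out there were 2349 to 2770 rises and 2156 to 2449 falls, 67 to 127 and 40 to 189 rises carried more by the first and second step, and 115 to 222 and 161 to 346 falls. The fit with no replicate block, that is without the pairing, gave 2000 rises and 1868 falls, with 56 and 35 rises and 113 and 133 falls assigned to the steps. Without normalization between arrays there were 435 rises, with 3 rises carried by the second step and 76 and 747 falls by the first and second. Arrays centred on their medians gave 96 rises at the second step, a filter at the 75th percentile 306, and eBayes with trend and robust settings 301. Without the filter the assigned rises were 59 and 40 and the falls 105 and 170, with 18193 genes in the adjustment. Sorts 1 and 2 alone gave 1179 rises and 1364 falls, with 0 rises and 0 falls assigned to a step; sorts 3 and 4 alone gave 1510 and 1553, with 6 and 1 rises and 6 and 6 falls, both on 2 residual degrees of freedom. With the Gapdh 3' to 5' ratio as a covariate, an alternative chosen after seeing the data, the rises assigned were 34 and 4 and the falls 37 and 52. The cause of the other shifts was not tested. Of 108 called genes named, all kept direction and call with any 1 array left out, and 93 did under all 14 other alternatives. The Dntt value turned to 0.02 with the mean of all probe sets. The signal over background limits the folds of genes that end below the filter level.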
